A study of Mus musculus with 186 samples.

Results

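The cell cycle genes described here were 40 genes chosen by name, though with earlier results of these data known. They comprised 21 G2/M genes, 12 S genes, 3 D cyclins and 4 inhibitors of cyclin-dependent kinases (CDKs). All 40 were found among the 27179 gene identifiers of the count files, 25275 of which matched a symbol, and all 40 passed the filter on low counts that left 14772 genes. The files hold RNA profiles of 186 single mammary epithelial cells of adult FVB/NJ mice, which the study's methods give as females of 10 weeks. Of these, 96 were sorted as basal (Lin-CD29hiCD24+) and 90 as luminal (Lin-CD29loCD24+), and cells carrying the lineage markers CD31, CD45 or TER119 were excluded at the sort. The Fluidigm C1, whose chip traps single cells at separate sites, was used to make cDNA from polyadenylated RNA. Plate A of the 3 PCR plates held basal cells, plate C luminal cells, and plate B alone both populations. The submitters' design note gives 8 mice in all, and the labels do not tie cells to mice, so the cells of a population were taken as 1 sample and the populations were compared without a test.

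A dividing cell passes through G1, S (DNA synthesis), G2 and M (mitosis). D cyclins join CDKs in G1 and promote the release of E2F factors from the retinoblastoma protein, and the CDK inhibitors of the Cip/Kip and INK4 families restrain these kinases. S genes encode replication factors and enzymes of nucleotide synthesis, and G2/M genes encode the mitotic kinases, cyclins, spindle and kinetochore proteins whose RNA is low in resting cells. In the adult gland the epithelium turns over with the estrus cycle, so a sorted population is a mixture of resting and dividing cells.

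The promoters of the G2/M genes shared sequence features that the choice of members did not use. The cell cycle homology region (CHR, searched as TTTGAA or TTCGAA), the CCAAT box (CCAAT) and a core of the E2F site (TTCCCGC or TTGGCGC) were searched on both strands in RefSeq promoters of the build GRCm38.p6, each running from 250 bases before to 50 bases after a transcription start. The table held promoters of 18 of the 21 G2/M genes and 10 of the 12 S genes. Both a CHR and a CCAAT box were found in 14 of 18 G2/M promoters (77.8%), 2 of 11 S promoters (18.2%) and 7.52% of all 32851 promoters. A CCAAT box alone was the broader feature, found in 16 of 18 G2/M promoters (88.9%), 8 of 11 S promoters (72.7%) and 37.4% of all promoters. The E2F core was found in 3 of 18 G2/M promoters (16.7%), 5 of 11 S promoters (45.5%) and 6.81% of all promoters. None of the 7 promoters of the D cyclin Ccnd3 and the inhibitors Cdkn1a, Cdkn1b and Cdkn2c held a CHR. A CCAAT box and an E2F core overlapped at 2 places in the G2/M and S promoters. A match is a string of letters and not a shown binding site.

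The windows below are shown because they carry these features within the 150 bases before the start of 3 G2/M genes and 1 S gene. Capitals mark matches, and all 4 genes lie on the minus strand. Cdk1 encodes the mitotic kinase (chr10:69352913-69353062), with 2 CHR and 2 CCAAT matches in the window. Cdc20 encodes an activator of the anaphase-promoting complex (chr4:118437344-118437493), with 1 CHR and 2 CCAAT matches. Ccnb2 encodes a B-type cyclin (chr9:70421555-70421704), with 3 CCAAT matches. Mcm6 encodes a subunit of the replicative helicase (chr1:128359706-128359855), with 2 E2F cores and 2 CCAAT matches.
Cdk1: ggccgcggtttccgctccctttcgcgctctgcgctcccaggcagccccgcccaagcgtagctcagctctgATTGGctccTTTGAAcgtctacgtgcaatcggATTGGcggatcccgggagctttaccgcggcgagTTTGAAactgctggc
Cdc20: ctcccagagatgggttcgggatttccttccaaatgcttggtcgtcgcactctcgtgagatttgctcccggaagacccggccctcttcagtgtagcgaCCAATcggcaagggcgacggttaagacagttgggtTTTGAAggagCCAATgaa
Ccnb2: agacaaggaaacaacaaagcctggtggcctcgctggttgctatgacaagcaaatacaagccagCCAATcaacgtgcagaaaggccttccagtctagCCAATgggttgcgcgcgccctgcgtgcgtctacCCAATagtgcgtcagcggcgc
Mcm6: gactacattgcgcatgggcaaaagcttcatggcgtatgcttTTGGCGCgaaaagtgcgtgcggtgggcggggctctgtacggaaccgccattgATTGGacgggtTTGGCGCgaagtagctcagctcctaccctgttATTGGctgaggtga

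Totals ran from 3105 to 3784407 counts per cell over all 186 cells. The study's thresholds kept 72 basal cells (50 of plate A, 22 of plate B) and 76 luminal cells (24 of plate B, 52 of plate C), with totals of 69933 to 3226961 counts on the genes kept. To compare how many genes a cell expressed, each cell was thinned to 50000 reads, so that depth was the same in all, and a gene with at least 1 read was called detected. All 10 basal markers were higher in the basal cells (median log2 ratio of luminal over basal -5.55) and all 10 luminal markers in the luminal cells (4.44). Genes detected per cell still differed at this depth. The median was 2920.5 in basal cells of plate A, 1569.5 in basal cells of plate B, 3192 in luminal cells of plate B and 3442 in luminal cells of plate C. Intervals given below are 95% intervals, exact Poisson for sums of reads and Clopper-Pearson for shares of cells. The Poisson intervals take each read as an independent count and leave out the spread between cells. PCR copies were not removed by molecular identifiers, so these intervals are too narrow even for counting error. Where a share is 0, the limit given is that of 3 cells of the total, and it concerns detection at the depth used. The cells of a population are not replicates, so the intervals make no comparison between populations.

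Cells with joint expression of G2/M genes were present in both populations. A cell was called joint for G2/M when at least 7 of the 21 genes were detected and joint for S when at least 4 of the 12 were. Joint G2/M expression was found in 20 of 72 basal cells (27.8%, interval 17.9 to 39.6) and in 15 of 76 luminal cells (19.7%, interval 11.5 to 30.5). The number of G2/M genes per cell spread over the whole range. In basal cells 28 of 72 had no G2/M gene detected, 15 had 1 or 2, 9 had 3 to 6 and 7 had 14 or more. In luminal cells 24 of 76 had none, 29 had 1 or 2, 8 had 3 to 6 and 7 had 14 or more. Near the limit, 1 basal and 1 luminal cell had 6 of the genes, and 3 basal cells and no luminal cell had exactly 7.

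**Figure D1:**
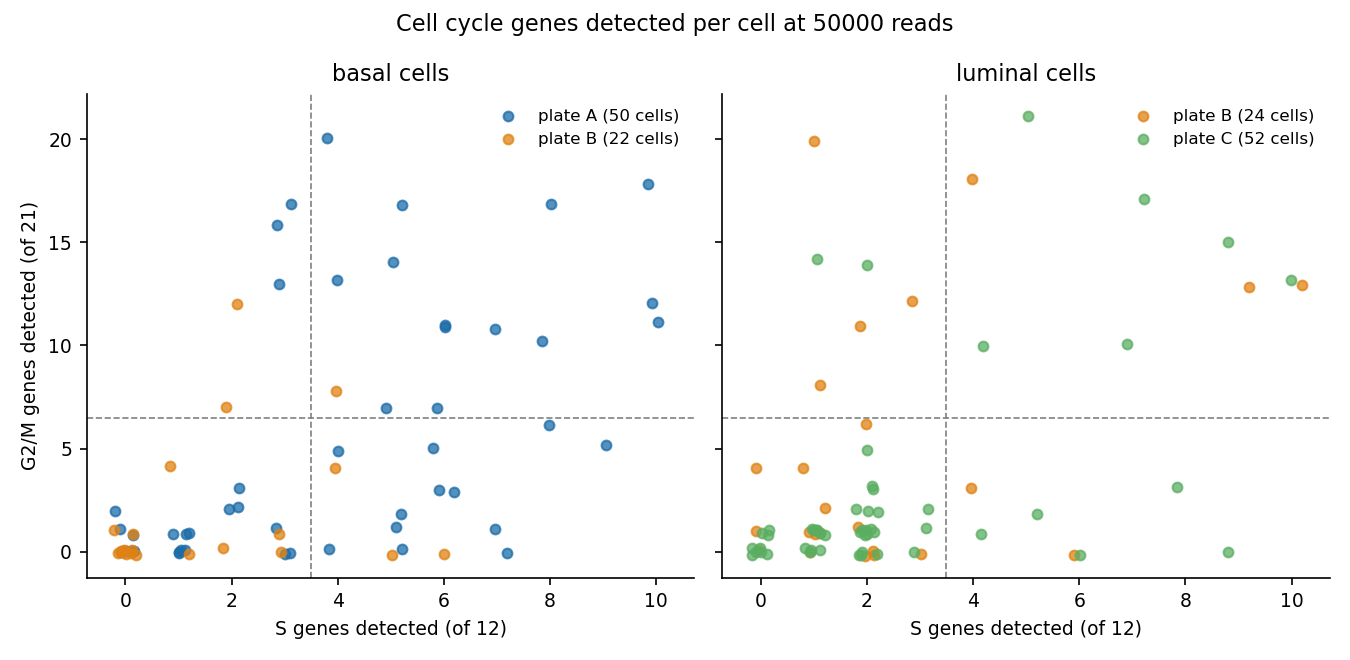
Number of S genes (x axis, of 12) and G2/M genes (y axis, of 21) detected in each cell at 50000 reads, in basal cells (left) and luminal cells (right). Each point is 1 cell, shifted slightly at random so that cells with the same values stay visible, coloured by PCR plate. Dashed lines mark the limits of 7 G2/M genes and 4 S genes. In both populations most cells lie at the lower left, and the cells above the horizontal line spread from 1 to 10 S genes.

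The cells with the most G2/M genes came from both populations. Luminal cell 68 (plate C) had all 21, and luminal cell 1 (plate B) and basal cell 12 (plate A) had 20 each. The summed level of the 21 genes in the joint cells ran from 1245 to 13300 CPM (counts scaled to the same total in every cell) in basal cells, with a median of 3905. In luminal cells it ran from 930 to 12809 CPM, with a median of 3128. Joint G2/M cells held 28.1% of all basal reads but 89.7% of the basal reads of the G2/M genes, and 21.3% of all luminal reads but 89.8% of the luminal reads of these genes. These shares and the values of the 21 genes in the joint cells are a description, since these genes chose the cells. For single genes the share ran from 63.0% (Ccna2) to 99.9% (Aurkb) of the basal reads and from 56.6% (Aurka) to 100% (Cdc20) of the luminal reads.

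Within the 35 joint G2/M cells the genes differed in how regularly they were detected. Mki67, which encodes the proliferation antigen Ki-67, and Top2a, which encodes topoisomerase II alpha, were each detected in 32 of 35. Birc5 (the chromosomal passenger protein survivin) was detected in 30, and Cdk1 and Ube2c (a ubiquitin-conjugating enzyme of anaphase) in 29 each. Aurka, a kinase of the centrosome, was detected in 8, Bub1b, a spindle checkpoint kinase, in 11, and Plk1 and Aurkb, kinases of mitosis and cytokinesis, in 12 each. Of the 113 cells that were not joint, Top2a was detected in 22, Mki67 in 19 and Cenpe, a kinetochore motor, in 15. Ccnb1, Ccna2, Bub1, Kif11 and Kif23 were each detected in 2 of these 113 cells, Cdc20 and Plk1 in 1, and Bub1b and Aurkb in 0, which at 50000 reads allows a share of cells with a read of up to 2.65% by 3 of 113. Mki67 and Top2a were thus also read in cells without most of the list, and Cdk1 in 5 of the 113.

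G2/M genes that the rule did not use were detected in the same cells. Of 40 other G2/M genes, the median number detected was 18 (range 7 to 33) in joint basal cells and 2 (range 0 to 13) in the other basal cells. In luminal cells it was 21 (range 11 to 31) against 3 (range 0 to 14). Of 25 other S genes, joint basal cells had a median of 8 against 2, and joint luminal cells 8 against 2. All genes together also differed, with a median of 3578 detected in joint and 2095.5 in other basal cells, and 4304 against 3172 in luminal cells. The part of this in the counts was not tested.

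Joint expression of S genes was found in 30 of 72 basal cells (41.7%, interval 30.2 to 53.9) and in 16 of 76 luminal cells (21.1%, interval 12.5 to 31.9). By plate the shares were not alike. On plate A it was 26 of 50 basal cells (52.0%), on plate B 4 of 22 basal cells (18.2%) and 5 of 24 luminal cells (20.8%), and on plate C 11 of 52 luminal cells (21.2%). Thus over all cells kept, the shares were close on the 1 plate that held both populations, and the higher basal share lay on plate A. None of the cells with under 2000 genes detected was joint for S. With those cells left out, a choice made after the data were seen, the plate B shares lay further apart. They were 4 of 8 basal cells (50.0%, interval 15.7 to 84.3) and 5 of 21 luminal cells (23.8%, interval 8.22 to 47.2). On plate A it was then 26 of 42 basal cells (61.9%), and on plate C 11 of 44 luminal cells (25.0%). S and G2/M expression overlapped in part. Both were joint in 15 basal and 9 luminal cells, S alone in 15 basal and 7 luminal cells, and G2/M alone in 5 basal and 6 luminal cells. The joint G2/M cells had 2 to 10 S genes in basal cells and 1 to 10 in luminal cells. At the ends of this range lay luminal cell 1, with 20 G2/M genes and 1 S gene, and luminal cell 65, with 9 S genes and no G2/M gene at this depth. Basal cell 58 had 18 G2/M and 10 S genes. Of the 25 other S genes, joint S cells had a median of 7 against 1 in basal cells and of 12.5 against 2 in luminal cells. Joint S cells also had more genes of all kinds detected. The medians were 3190.5 against 1993.5 in basal cells and 4194.5 against 3187 in luminal cells. The part of this in the counts of S genes was not tested.

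S genes, which the G2/M rule did not use, were also read in the joint G2/M cells. These cells had more genes of all kinds detected, and the part of that in the shares below was not tested. Pcna, which encodes the sliding clamp of DNA polymerase, was detected in 19 of 20 joint and 18 of 52 other basal cells, and in 13 of 15 joint and 25 of 61 other luminal cells. Its intervals were 75.1% to 99.9% and 22.0% to 49.1% in basal cells, and 59.5% to 98.3% and 28.6% to 54.3% in luminal cells. Among basal cells of plate A alone, Pcna was detected in 17 of 17 joint and 15 of 33 other cells. Rrm2, a subunit of ribonucleotide reductase, was detected in 13 of 20 and 13 of 52 basal cells and in 10 of 15 and 5 of 61 luminal cells. Its luminal level was 427 CPM in joint and 10.4 CPM in other cells. Tyms, thymidylate synthase, was detected in 17 of 20 and 11 of 52 basal cells, and in 9 of 15 and 14 of 61 luminal cells. The helicase gene Mcm4 differed less, with 10 of 20 and 19 of 52 in basal cells and 6 of 15 and 20 of 61 in luminal cells. Ccne1 and E2f1, a cyclin and a transcription factor of the G1/S transition, were rare, detected in 5 and 3 basal cells and in 3 and 1 luminal cells. In all, joint G2/M cells held 47.8% of the basal and 50.3% of the luminal reads of the 12 S genes, beside 28.1% and 21.3% of all reads. Their share of the G2/M reads is no measure for this, since the G2/M genes chose the cells.

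The plate moved with the basal shares. Joint G2/M expression was found in 17 of 50 basal cells of plate A (34.0%, interval 21.2 to 48.8) and 3 of 22 of plate B (13.6%, interval 2.91 to 34.9). In luminal cells it was found in 7 of 24 of plate B (29.2%, interval 12.6 to 51.1) and 8 of 52 of plate C (15.4%, interval 6.88 to 28.1). All 7 basal cells with 14 or more G2/M genes came from plate A, and 0 of 22 on plate B allows a share of up to 13.6% by 3 of 22. The number of genes detected moved with the plate as well. None of the 22 basal and 11 luminal cells with under 2000 genes at 50000 reads was joint for G2/M or for S, and the most G2/M genes any of them had was 2. With these cells left out, a choice made after the data were seen, joint G2/M expression was found in 17 of 42 basal cells of plate A (40.5%) and 3 of 8 of plate B (37.5%). In luminal cells it was found in 7 of 21 of plate B (33.3%) and 8 of 44 of plate C (18.2%). Across cells, Spearman's rho between the number of G2/M genes and of all genes was 0.62 over 72 basal cells and 0.48 over 76 luminal cells, which share PCR plates and, at 50000 reads, depth. The mice of a plate are not named, so plate and animal cannot be told apart.

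**Figure D2:**
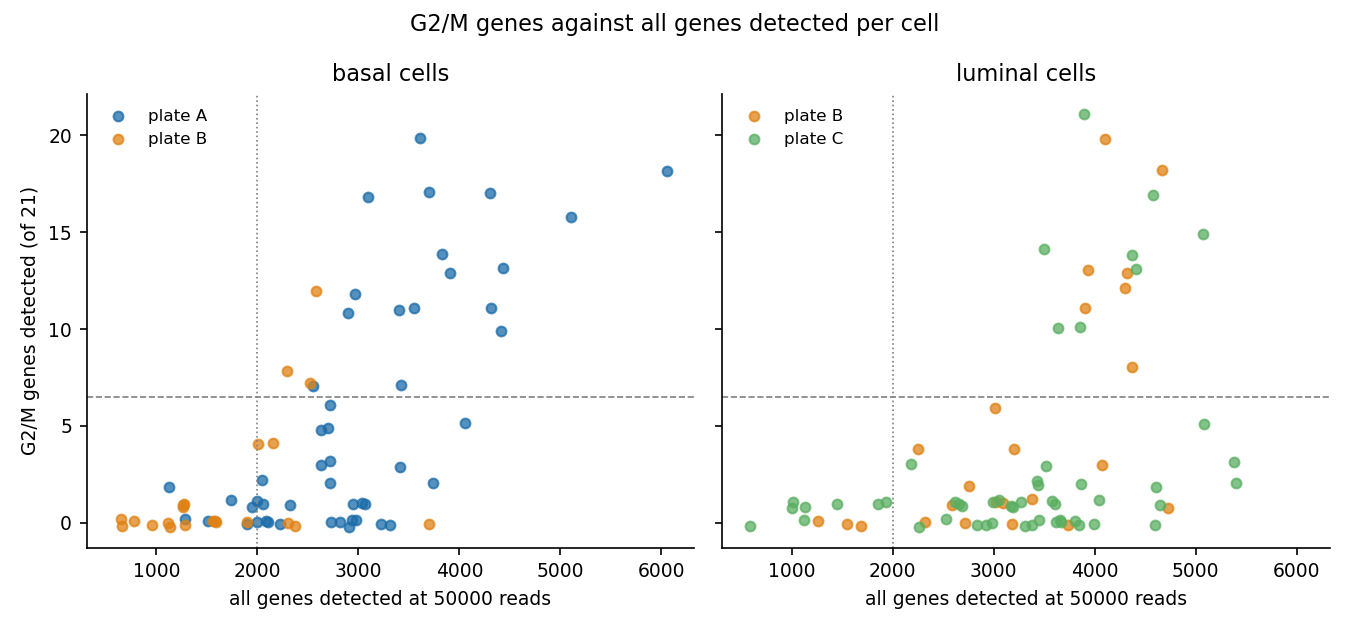
Number of G2/M genes detected (y axis, of 21) against the number of all genes detected (x axis) in each cell at 50000 reads, for basal cells (left) and luminal cells (right), coloured by PCR plate. The dashed line marks 7 G2/M genes and the dotted line 2000 genes. No cell to the left of the dotted line reaches the dashed line, and many basal cells of plate B lie to its left.

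Several markers of another cell type were detected in few of the joint G2/M cells, but single markers were common. Of 12 endothelial markers, at least 4 were detected in 2 of 20 joint basal cells (cells 71 and 95, both plate B, with 5 each) and in 1 of 15 joint luminal cells (cell 25, plate C, with 10). Their summed level ran from 0 to 3379 CPM in joint and from 0 to 10082 CPM in other basal cells, and from 0 to 1616 and from 0 to 2920 CPM in luminal cells. Cell 25 also had 7 of 10 pericyte markers, and luminal cell 61 had 10 of 12 fibroblast markers. In joint basal cells at most 3 of 12 fibroblast markers were detected, but their summed level ran from 8.95 to 1154 CPM with a median of 461, against 0 to 31194 CPM with a median of 48.6 in other basal cells. In luminal cells the medians were 1.22 CPM in joint and 11.2 CPM in other cells. The part of these markers in the counts of joint cells was not tested. The fibroblast list includes Fbn1, which the paper places among its basal genes. Of the basal cells, 17 of 20 joint and 33 of 52 others were of plate A. At least 4 of the 12 immune markers were detected in 0 of the 35 joint cells, and the most in any was 1. Without the cells with 4 or more endothelial markers the joint G2/M share was 26.9% (18 of 67) in basal cells and 19.4% (14 of 72) in luminal cells. The joint cells carried the markers of their population. A median of 9 of 10 basal markers was detected in joint and in other basal cells. In joint and other luminal cells the medians were 9 and 8 of 10 luminal markers, 5 and 4 of 10 luminal progenitor markers, and 7 and 6 of 10 mature luminal markers. Joint luminal cells also had reads of basal markers. The summed level of the 10 basal markers had a median of 35.3 CPM (range 0 to 4150) in joint and of 1.88 CPM (range 0 to 10781) in other luminal cells, and Krt14 was detected in 7 of 15 and 8 of 61.

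Levels were then compared between the populations over all their cells, as the log2 ratio of luminal over basal summed CPM, with 1 CPM added to each. A ratio of 1 or more was read as higher in luminal and of -1 or less as higher in basal. Of the 40 genes, 3 were higher in luminal cells (7.50%, against 28.4% of all 14772 genes) and 10 in basal cells (25.0%, against 18.3%). Those higher in luminal cells were Aurka, Ccne2 and Ccnd3. Those higher in basal cells were Mki67, Cdc20, Cenpe, Kif11, Kif23, Mcm3, Ccne1, E2f1, Ccnd2 and Cdkn1c. The median ratio was -0.16 over the G2/M genes and -0.25 over the S genes, beside 0.18 over all genes. The ratios ran from -2.12 to 1.20 for the G2/M genes and from -2.72 to 1.35 for the S genes. These counts and medians did not hold between plates, though some single genes kept their direction. On plate B alone 19 of the 40 were higher in luminal cells (47.5%, against 41.4% of all genes) and 3 in basal cells (7.50%, against 17.2%). Between luminal plate C and basal plate A, 2 were higher in luminal (5.00%, against 27.4%) and 16 in basal cells (40.0%, against 20.1%). The median of the G2/M genes was 1.38 on plate B and -1.09 between plates C and A, and that of the S genes 0.67 and -0.73. Within the basal cells, plate B was lower than plate A by a log2 ratio of 1 or more for 14 of 21 G2/M genes and 8 of 12 S genes (against 41.7% of all genes), with none higher by as much (against 13.6%). Within the luminal cells, plate C was lower than plate B by as much for 8 of 21 G2/M and 2 of 12 S genes (against 15.4%), and higher for 0 and 1 (against 24.6%).

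**Figure D3:**
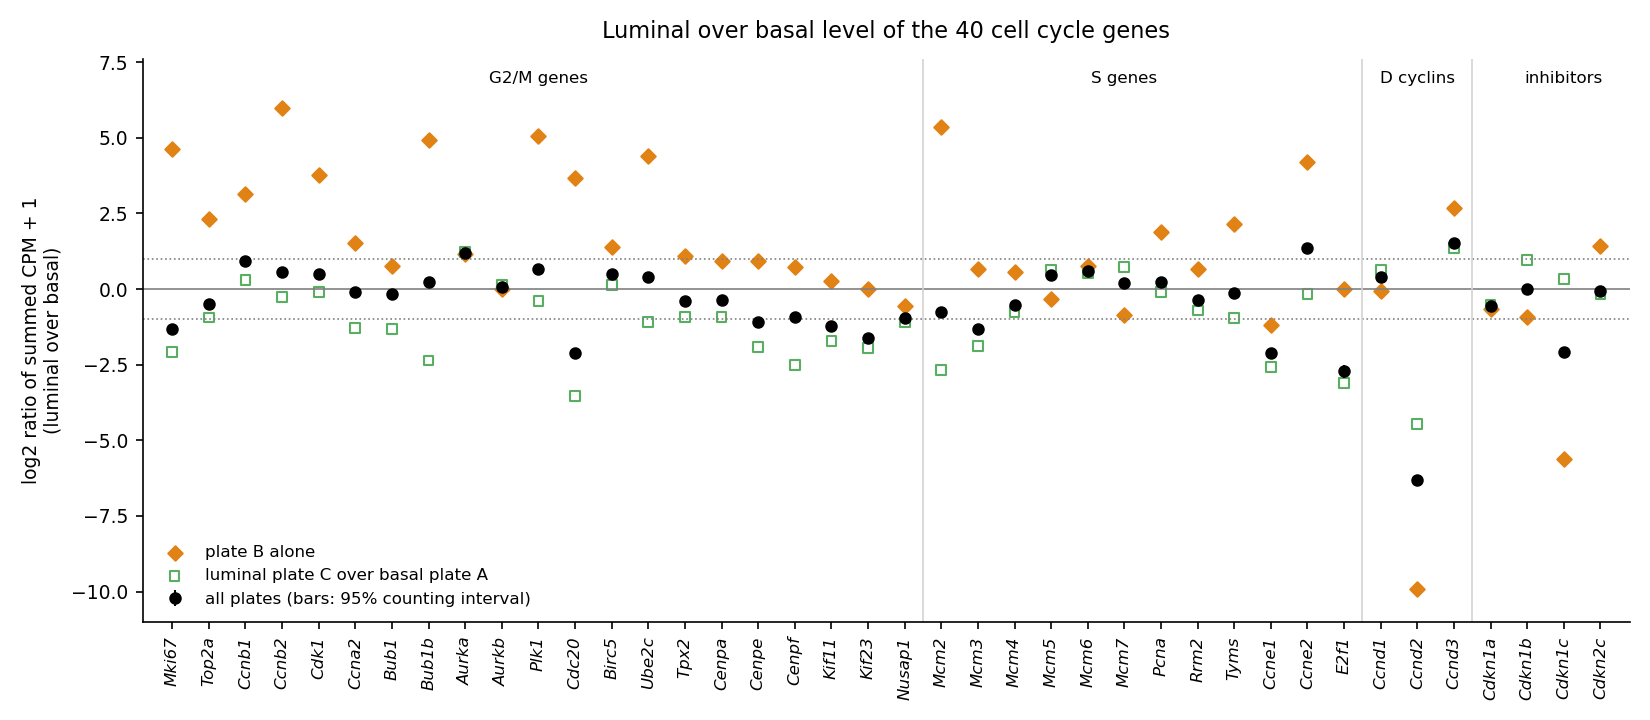
Log2 ratio of luminal over basal summed CPM, with 1 CPM added, for each of the 40 genes, grouped as G2/M genes, S genes, D cyclins and inhibitors. Black circles give all plates with 95% counting intervals, which are mostly smaller than the circles, orange diamonds plate B alone, and open squares luminal plate C over basal plate A. Dotted lines mark ratios of 1 and -1. For most G2/M genes the diamonds lie above 0 and the squares below. For Ccnd2 and Ccnd3 all 3 symbols lie on the same side of 0, as they do for some other members, among them Aurka, Ccne1 and Cdkn1a.

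Mki67 (Entrez 17345, chr7:135689784-135716450) shows how few cells set such a ratio. Its level per cell ran from 0 to 3288 CPM with a median of 1.03 in basal cells and from 0 to 906 CPM with a median of 0.79 in luminal cells, so the groups overlap. Its summed level was 193 CPM (interval 190 to 196) in basal and 76.8 CPM (interval 75.2 to 78.5) in luminal cells, a log2 ratio of -1.32. On plate B the ratio was 4.62, where the basal cells were at 2.96 CPM and the luminal cells at 96.6 CPM. Without basal cell 23, which held 25.9% of the basal reads, the ratio over all plates was -0.91. Top2a had 252 and 179 CPM in basal and luminal cells, a ratio of -0.49 over all plates, of -0.93 without luminal cell 48 and of 2.31 on plate B. Cdk1 had 61.9 and 87.6 CPM, a ratio of 0.50 that was 0.82 without basal cell 57, 3.76 on plate B and -0.09 between plates C and A. Mki67 was detected in 28 of 72 basal cells (38.9%, interval 27.6 to 51.1) and 23 of 76 luminal cells (30.3%, interval 20.2 to 41.9).

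The ratios of other G2/M and S genes, past the fold or within it, rested on single cells to differing degrees. Kif23, a kinesin of cytokinesis, had levels of 85.6 CPM in basal cells and 27.4 CPM in luminal cells, with a log2 ratio of -1.61 that was -0.01 on plate B. Cenpe had 138 and 64.5 CPM, a ratio of -1.09 that turned to 0.93 on plate B. Aurka had 15.5 and 36.7 CPM, a ratio of 1.20 that was 0.52 without luminal cell 50, which held 39.2% of the luminal reads. The ratio of Aurka was 1.15 on plate B and 1.23 between plates C and A. Mcm3 had 79.9 and 31.3 CPM, a ratio of -1.33 that turned to 0.66 on plate B. Ccne1 had 25.5 and 5.16 CPM, a ratio of -2.10 that was -0.92 without basal cell 24, which held 58.8% of the basal reads. The ratio of Ccne1 was -1.18 on plate B and -2.59 between plates C and A. Ccne2, its relative among the E cyclins, had 14.5 and 38.6 CPM, a ratio of 1.35 that was 0.08 without luminal cell 9. That cell held 60.7% of the luminal Ccne2 reads. Pcna had 62.1 and 73.2 CPM and was detected in 37 of 72 basal and 38 of 76 luminal cells, with a ratio of 0.23 that was 0.04 without luminal cell 48 and -0.10 between plates C and A. Rrm2 had 129 and 98.9 CPM, a ratio of -0.37 that was -0.80 without luminal cell 64 and 0.67 on plate B. Mcm4 had 127 and 88.4 CPM, a ratio of -0.52 that was -1.08 without luminal cell 89 and 0.56 on plate B. E2f1 had 7.51 and 0.289 CPM, a ratio of -2.72 that was -1.20 without basal cell 7. Cdc20 had 32.6 and 6.73 CPM, a ratio of -2.12 that was -1.57 without basal cell 36 and 3.66 on plate B. Kif11 had 54.3 and 22.7 CPM, a ratio of -1.22 that was -0.74 without basal cell 23 and 0.26 on plate B.

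The D cyclins divided between the populations by gene. Ccnd1 (Entrez 12443, chr7:144929931-144939831) was the D cyclin of both. Per cell it ran from 0 to 2434 CPM with a median of 215 in basal cells and from 0 to 2296 CPM with a median of 400 in luminal cells, so the ranges overlap almost wholly. It was detected in 50 of 72 basal cells (69.4%, interval 57.5 to 79.8) and 65 of 76 luminal cells (85.5%, interval 75.6 to 92.5). Its summed level was 447 CPM (interval 443 to 452) in basal cells and 591 CPM (interval 587 to 596), a log2 ratio of 0.40 that was -0.05 on plate B.

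Ccnd2 (Entrez 12444, chr6:127125162-127152188) was high in basal cells and near 0 in most luminal cells. Per cell it ran from 0 to 22424 CPM with a median of 184 in basal cells and from 0 to 784 CPM with a median of 0 in luminal cells. It was detected in 55 of 72 basal cells (76.4%, interval 64.9 to 85.6) and 9 of 76 luminal cells (11.8%, interval 5.56 to 21.3). Its summed level was 1583 CPM (interval 1575 to 1592) in basal and 19.1 CPM (interval 18.3 to 19.9) in luminal cells, a log2 ratio of -6.30. The direction was the same on plate B (-9.91) and between plates C and A (-4.45). Basal cell 69 (plate B) held 33.1% of the basal reads, and without it the ratio was -5.75. Per length and summed over both plates, Ccnd2 had the highest level of the 40 genes in basal cells. It was at 274 RPKM (reads scaled to the gene's length and to all reads), against 118 RPKM for Ccnd1. This ranking rested on plate B, where Ccnd2 had 3534 CPM. On plate A it had 610 CPM over 5772 bases and Ccnd1 416 CPM over 3796 bases, so the ranking did not hold there. In luminal cells Ccnd1 was the highest, at 156 RPKM, against 3.31 RPKM for Ccnd2.

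The luminal reads of Ccnd2 came mostly from cells that carried markers of other cell types. All 4 luminal cells with 4 or more endothelial markers had Ccnd2, at 18.9 to 483 CPM, and they held 49.1% of the luminal reads. Luminal cell 63 (plate C) held a further 44.1%, at 784 CPM. It had 9 of 10 basal and 9 of 10 luminal markers, with 419 CPM of the basal keratin Krt14 and 1524 CPM of the luminal keratin Krt18. In the other 71 luminal cells Ccnd2 was detected in 4, and its summed level was 1.37 CPM. In basal cells 5 had 4 or more endothelial markers, and they held 1.40% of the basal Ccnd2 reads. Whether these wells held more than 1 cell was not tested.

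Ccnd3 (Entrez 12445, chr17:47505051-47599689) was the lowest D cyclin in basal cells and was higher in luminal cells. Per cell it ran from 0 to 172 CPM in basal and from 0 to 288 CPM in luminal cells, with a median of 0 in both. It was detected in 8 of 72 basal cells (11.1%, interval 4.92 to 20.7) and 20 of 76 luminal cells (26.3%, interval 16.9 to 37.7). Its summed level was 8.63 CPM (interval 8.01 to 9.28) and 26.5 CPM (interval 25.6 to 27.5), a log2 ratio of 1.51, with 2.66 on plate B and 1.35 between plates C and A. No D cyclin was detected in 10 basal and 8 luminal cells. A single D cyclin was detected in 18 basal and 43 luminal cells, 2 in 37 and 24, and all 3 in 7 and 1. Ccnd1 and Ccnd2 were detected together in 43 basal cells and 7 luminal cells, and Ccnd1 and Ccnd3 together in 7 and 18.

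**Figure D4:**
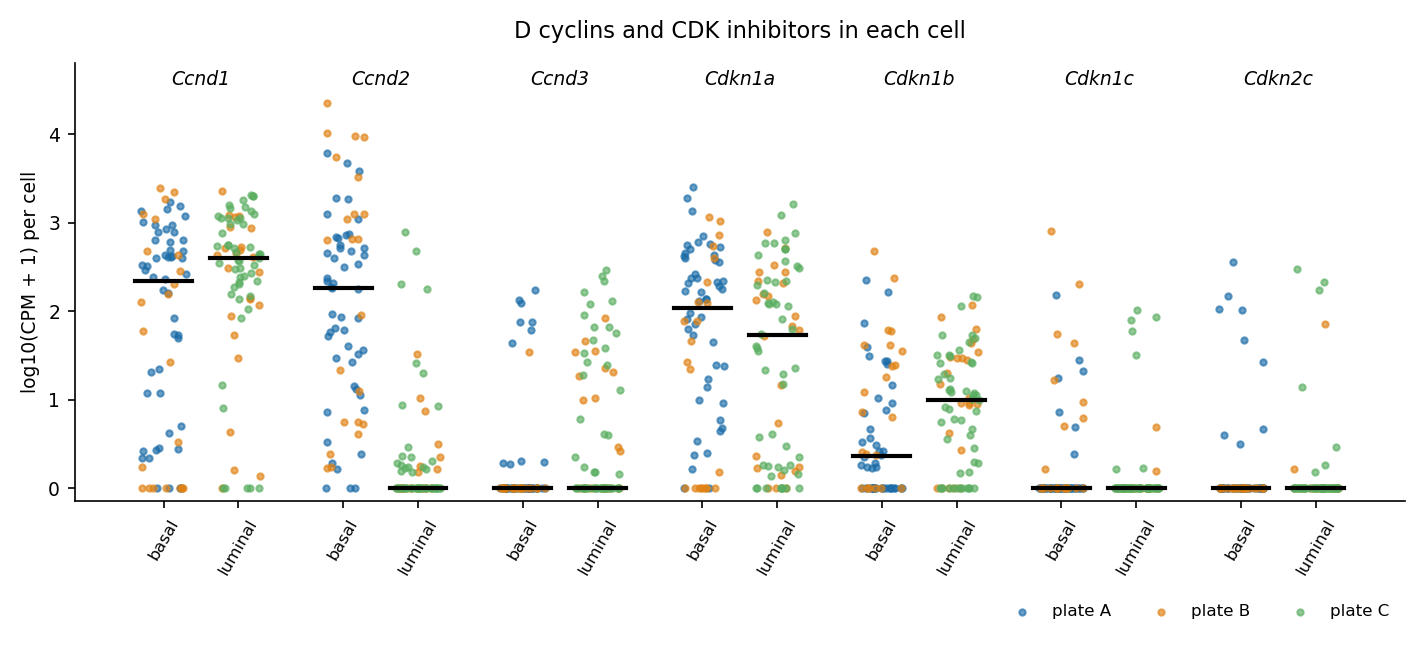
Level of each D cyclin and CDK inhibitor in every cell, as log10 of CPM plus 1, for 72 basal and 76 luminal cells. Each point is 1 cell, coloured by PCR plate, and each black bar is the median over the cells of that population. Ccnd2 lies at a median of 184 CPM in basal cells and of 0 in luminal cells, while the clouds of Ccnd1 and Cdkn1a overlap.

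The inhibitors did not separate the populations in the same way. Cdkn1a, which encodes p21, was the highest of the 4 in both. Per cell it ran from 0 to 2533 CPM with a median of 108 in basal cells and from 0 to 1615 CPM with a median of 53.2 in luminal cells. It was detected in 53 of 72 basal and 47 of 76 luminal cells, and its summed level was 253 CPM (interval 250 to 257) and 171 CPM (interval 168 to 173), a log2 ratio of -0.57 that was -0.66 on plate B. Cdkn1b, which encodes p27, had summed levels of 22.1 and 22.4 CPM, a ratio of 0.01 that was 0.48 without basal cell 84, which held 29.7% of the basal reads. It was detected in 20 of 72 basal cells (27.8%, interval 17.9 to 39.6) and 32 of 76 luminal cells (42.1%, interval 30.9 to 54.0), with medians of 1.29 and 8.95 CPM per cell. Its ratio was -0.93 on plate B and 0.96 between plates C and A. Cdkn1c, which encodes p57, had 22.8 and 4.59 CPM, a ratio of -2.09. Basal cell 73 held 62.3% of its basal reads, and without that cell the ratio was -0.80. Between plates C and A it was 0.32. Cdkn2c, which encodes the INK4 inhibitor p18, had 11.9 and 11.2 CPM and was detected in 6 cells of each population, a ratio of -0.08 that was 0.64 without basal cell 12, which held 43.6% of the basal reads. On plate B its basal cells were at 0 reads.

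D cyclins and inhibitors were also read in the joint G2/M cells. Ccnd1 was detected in 19 of 20 joint basal cells (95.0%, interval 75.1 to 99.9) and 31 of 52 other basal cells (59.6%, interval 45.1 to 73.0). Of the 20 joint basal cells 17 were of plate A, where it was detected in 16 of 17 (interval 71.3 to 99.9) and 22 of 33 (interval 48.2 to 82.0). In luminal cells it was detected in 15 of 15 joint cells (100%, interval 78.2 to 100) and 50 of 61 others (82.0%, interval 70.0 to 90.6). Ccnd2 was detected in 17 of 20 joint and 38 of 52 other basal cells. Its summed level was lower in the joint cells (547 against 1988 CPM) although its median per cell was higher (328 against 83.5 CPM). Within plate A the summed levels lay closer, at 451 and 699 CPM, with medians of 313 and 63.7 CPM. Basal cell 69, in which Ccnd2 was highest, was not a joint cell. Cdkn2c was detected in 5 of 20 joint basal cells and 1 of 52 others, at 41.4 and 0.364 CPM, and in 3 of 15 joint luminal cells and 3 of 61 others. Cdkn1b was detected in 11 of 15 joint luminal cells (73.3%, interval 44.9 to 92.2) and 21 of 61 others (34.4%, interval 22.7 to 47.7), but in 6 of 20 joint and 14 of 52 other basal cells. Cdkn1a was detected in 15 of 20 and 38 of 52 basal cells and in 11 of 15 and 36 of 61 luminal cells, so that the joint cells did not lack p21 RNA. Joint G2/M cells had more genes detected in all, as given above, and the part of this in these shares was not tested.

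Across cells, the thinned count of Ccnd1 had a Spearman's rho with the number of S genes detected of 0.47 over 72 basal cells and of 0.16 over 76 luminal cells. With the number of G2/M genes it was 0.40 and 0.24. Cdkn1b had a rho with the number of G2/M genes of -0.07 in basal and 0.33 in luminal cells, and Cdkn1a of 0.04 and 0.22. The numbers of S and G2/M genes had a rho of 0.60 and 0.38. The cells of a population share plates and differ in genes detected, so these are descriptions.

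The remaining regulators of the cycle were read from lists that hold none of the 40 genes. Of 29 other G1 regulators, 26 passed the filter, of which 6 were higher in luminal cells (23.1%, against 28.4% of all genes) and 4 in basal cells (15.4%, against 18.3%). On plate B alone it was 13 (50.0%, against 41.4%) and 3 (11.5%, against 17.2%). Between plates C and A it was 6 (23.1%, against 27.4%) and 5 (19.2%, against 20.1%). The level of Ccng1, a cyclin that p53 induces, was 7.57 CPM in basal cells against 83.9 CPM in luminal cells, a log2 ratio of 3.31. E2f5, a repressor of the E2F family, had 1.52 and 14.6 CPM, a ratio of 2.63 that was 1.77 without luminal cell 70. Of 25 other S genes, the luminal level was higher for 6 (24.0%, against 28.4%) and the basal level for 2 (8.00%, against 18.3%). On plate B alone it was 17 (68.0%, against 41.4%) and 2 (8.00%, against 17.2%). Between plates C and A it was 3 (12.0%, against 27.4%) and 4 (16.0%, against 20.1%). Cdt1, a licensing factor of replication origins, had a ratio of 3.02 that turned to -0.70 between plates C and A, Pold1, the catalytic subunit of DNA polymerase delta, 2.58, and the DNA glycosylase gene Ung -1.87. Without the cell that moved each most these were 2.25 (luminal cell 19), 3.64 (basal cell 23) and -0.95 (basal cell 8). Of the 40 other G2/M genes, 3 were higher in luminal cells (7.50%, against 28.4%) and 10 in basal cells (25.0%, against 18.3%), among them the kinetochore gene Nuf2 (76.0 and 19.8 CPM, a ratio of -1.89) and Hmmr (97.9 and 31.9 CPM, a ratio of -1.59), which acts at the spindle. On plate B alone 27 of the 40 were higher in luminal cells (67.5%, against 41.4% of all genes) and 2 in basal cells (5.00%, against 17.2%). Between plates C and A it was 3 (7.50%, against 27.4%) and 18 (45.0%, against 20.1%).

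Of 12 p53 targets, 3 were higher in luminal cells (25.0%, against 28.4%) and 2 in basal cells (16.7%, against 18.3%), with a median ratio of 0.04. On plate B alone it was 6 (50.0%, against 41.4%) and 2 (16.7%, against 17.2%). Between plates C and A it was 4 (33.3%, against 27.4%) and 2 (16.7%, against 20.1%). Trp53inp1, a cofactor of p53, was at 16.9 CPM over the basal and at 954 CPM over the luminal cells, a ratio of 5.74, and was detected in 10 of 72 and 53 of 76 cells. Zmat3 had a ratio of 2.71. Without basal cell 30 and basal cell 46, which held most basal reads of the respective gene, these ratios were 6.73 and 4.43. Mdm2, which encodes the ubiquitin ligase of p53, lay the other way, with 434 and 111 CPM, a ratio of -1.96. Cdkn1a, itself a p53 target, thus did not share a direction with Trp53inp1 and Zmat3. Of 13 immediate early genes, which respond within minutes to growth factors and to tissue dissociation, 6 were higher in luminal cells (46.2%, against 28.4%) and 0 in basal cells (against 18.3%), with a median ratio of 1.00. By plate these counts lay nearer to those of all genes. On plate B alone 6 were higher in luminal (46.2%, against 41.4%) and 1 in basal cells (7.69%, against 17.2%). Between plates C and A it was 4 (30.8%, against 27.4%) and 1 (7.69%, against 20.1%). Junb had 73.3 and 201 CPM, a ratio of 1.44, and Jun 229 and 578 CPM, a ratio of 1.33. The number of these genes detected per cell had a median of 10.5 in joint and 9 in other basal cells, and of 11 and 10 in luminal cells.

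Wells below the study's thresholds added no joint cell. At full depth, 0 of 24 basal and 0 of 14 luminal wells below the thresholds were joint for G2/M, which allows shares of up to 12.5% and 21.4% by 3 of 24 and 3 of 14.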

How the data were processed

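The labels put 96 cells in the basal and 90 in the luminal population, and each cell's file holds raw counts per gene as the authors deposited them. Per the study's methods, read pairs were aligned to mm10 with Subread, and featureCounts assigned them to genes of the RefSeq annotation that Rsubread carries. The handling of strand and of reads that fit several genes is not given in the sources used here, so overlapping genes and close relatives may share reads. The gene length deposited by the authors was used for RPKM only. The table of the whole series repeats the per-cell counts and was not used.

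Identifiers were matched to RefSeq symbols of GRCm38.p6 (mm10 is this assembly), and 1904 without a symbol, with 1.94% of counts, were left out, as were 15 mitochondrial and 125 ribosomal protein genes. Cells were kept from 50000 reads and 1000 genes (basal) or 100000 reads and 1500 genes (luminal), the study's thresholds, and genes from 1 CPM in 3 cells. Totals of the cells kept ran from 69933 to 3226961 counts. No doublets were called, since capture sites had been viewed under a microscope, and no pair of cells had identical counts. Thinning drew 50000 reads per cell without replacement with a fixed seed. Ratios used sums over cells with a pseudocount of 1 CPM. The ratio step and the thinning were tested on simulated data. With 1 sample per population, no test was run, and "higher" means a log2 ratio of 1 or more either way.

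The 40 genes, the other lists and the tests were chosen with earlier results of these data known. Genes were named by a rule: the D cyclins and inhibitors, Mki67, Top2a, Cdk1 and Pcna, S or G2/M genes among the 3 most abundant of their list in a population or past the fold in the same direction on plate B, and 2 genes per direction of each other list, from 10 CPM. All other members named were chosen after their values were seen. Alternatives changed the cell and gene filters, depth, detection limit, normalization (TMM of edgeR 4.0.16, or median-of-ratios factors), pseudocount, summary, plates and cells with endothelial markers. Python 3.11.15, numpy 2.4.6, pandas 2.3.3 and scipy 1.17.1 were used.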

Additional observations from a re-analysis of the deposited data

How the results depend on the processing

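No paired analysis was possible because a number found in both populations' labels only names a cell, and no test was run. The joint G2/M shares stayed within their counting intervals under every alternative but 2, both in basal cells, with 13.6% on plate B alone and 40.0% without cells under 2000 genes, a choice made after the data were seen. The joint S share at full depth was 68.1% in basal and 61.8% in luminal cells. In basal cells it was 29.2% with 2 or more reads per gene, 23.6% when 6 of 12 genes were asked for, 18.2% on plate B and 60.0% without cells under 2000 genes. The number of members higher in luminal cells was 3, but 0 with a pseudocount of 10 CPM, 19 on plate B and 1 without cells under 2000 genes. The number higher in basal cells was 10, but 3 on plate B and 16 between basal plate A and luminal plate C.

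The median ratio of the G2/M genes and of the S genes moved to -0.36 and -0.46 with TMM factors, which shift every ratio by -0.21, and to -0.33 and -0.43 with median-of-ratios factors, which shift it by -0.18. They were -0.39 and -0.46 as means of CPM per cell, -0.46 and -0.46 from thinned counts, 1.38 and 0.67 on plate B, -1.09 and -0.73 between basal plate A and luminal plate C, and -0.48 and -0.88 without cells under 2000 genes. The S median was -0.16 without cells with endothelial markers. Leaving out each cell in turn gave 2 to 4 members higher in luminal and 8 to 13 in basal cells, and medians of -0.51 to 0.06 for G2/M and -0.54 to -0.07 for S genes. Among the genes named by the rule, ratios of size 1 or more turned on plate B for Mki67 (4.62), Cenpe (0.93) and Mcm3 (0.66). Between plates A and C those of Ccne2 (-0.16), Cdkn1c (0.32) and Cdt1 (-0.70) turned, and without cells under 2000 genes that of Ccne2 (-1.06). Of the other members past the fold, Cdc20 (-2.12 over all plates, 3.66 on plate B) and Kif11 (-1.22 and 0.26) also turned on plate B. Smaller ratios of the genes named by the rule that changed sign on plate B were Top2a (2.31), Mcm4 (0.56), Rrm2 (0.67), Ccnd1 (-0.05), Cdkn1b (-0.93) and Cdkn2c (1.41). Between plates A and C these were Cdk1 (-0.09) and Pcna (-0.10). Pcna also did so without cells under 2000 genes (-0.31), Cdkn2c without basal cell 12 (0.64), and Cdkn1b in 7 of 15 alternatives. Ccnd2 stayed between -9.91 and -4.45 and Ccnd3 between 0.97 and 2.66 over 15 alternatives each. Beyond the plates and the cells named, the causes were not tested.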
